A study of Homo sapiens with 8 samples.

Results

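Short hairpin RNA (shA3B) was used to deplete APOBEC3B (A3B) in 92.1, a human uveal melanoma cell line, and the transcriptome was set against that of control cells (shCtrl). The comparison used 4 of the 8 libraries of the series, 2 shA3B and 2 shCtrl, each numbered replicate 1 or 2 in its label. The other 4 libraries came from MEL290, a second uveal melanoma line, either overexpressing A3B (A3B OE) or labelled NC as controls, and entered only where the response of 92.1 was set against theirs. Per the study's methods, the hairpins were delivered by a lentiviral vector that also carries TurboGFP and puromycin resistance, and infected cells were selected with puromycin. The methods describe the control as an empty vector while the labels call it shCtrl, and whether the control cells were infected and selected in the same way is not stated. The methods list more than a single hairpin, and the labels do not give which was sequenced, so an effect of a particular hairpin and an effect of A3B loss cannot be told apart. The labels do not say whether the replicates were separate cultures, and the p-values then measure only the spread between these libraries. Expression was given as FPKM, fragment counts scaled to transcript length and library size, for 19952 gene symbols. The 11605 symbols that reached 1 FPKM in 2 or more of these 4 libraries were tested, and 64 of them reached that level in the libraries of a single group.

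A3B is a cytidine deaminase of the APOBEC3 family, enzymes that convert cytosine to uracil in single-stranded DNA and restrict viruses and transposons. In tumour cells the uracils left by A3B give rise to C-to-T mutations, and single-stranded DNA is exposed at replication forks and in R-loops, structures in which RNA is annealed to DNA. Stalled forks coated with replication protein A (RPA) activate the ATR kinase and its effector CHK1. The comparison in 92.1 therefore addressed how transcripts of replication, R-loop resolution, the ATR-CHK1 checkpoint and the cell cycle differ between shA3B and shCtrl cells.

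The 4 libraries were alike in breadth. Between 11464 and 11524 symbols reached 1 FPKM per library, and genes of the mitochondrial genome held between 15.0% and 16.5% of the summed FPKM. FPKM values carry no depth. A loose estimate from the lowest values put the libraries at 26900000 and 24500000 fragments for shCtrl and 27200000 and 31600000 for shA3B. The pair of libraries closest to each other crossed the groups, since log2(FPKM + 1) differed with an SD of 0.21 over genes between shCtrl replicate 1 and shA3B replicate 1, against 0.30 between the shCtrl libraries and 0.26 between the shA3B libraries. All 8 melanocyte lineage markers reached 1 FPKM in at least 1 library, with a summed level between 7117 and 8713 FPKM, led by PMEL, a matrix protein of melanosomes. DCT and S100B were low members of that list, at 1.77 to 2.82 FPKM and 1.33 to 1.91 FPKM. Markers of other cell types were low, and many were listed at 0. The 4 endothelial markers did not reach 1 FPKM in any library, with a sum at or under 0.115 FPKM, and PTPRC, the leukocyte common antigen, was at or under 0.0626 FPKM. Of 5 leukocyte markers CD68 alone reached 1 FPKM, at 14.5 to 35.0 FPKM. Of 5 epithelial markers KRT14 did so, in 1 library. Of 5 fibroblast markers COL1A1 and LUM did, with a list sum of 6.16 to 8.33 FPKM while COL3A1 and DCN were listed at 0. Of 4 markers of retinal pigment epithelium RLBP1 and BEST1 did, with a list sum of 7.46 to 9.30 FPKM while RPE65 was at or under 0.0153 FPKM.

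The targeted gene fell in both shA3B libraries. APOBEC3B (ENSG00000179750.16, protein-coding, GENCODE release 44, GRCh38, chr22:38982347-38992804, plus strand) was at 35.95 and 32.3 FPKM in shCtrl and 1.98 and 2.37 FPKM in shA3B. The groups lay far apart without overlap, with a mean of 34.1 ± 2.56 FPKM (SD, n = 2) in shCtrl and 2.18 ± 0.278 FPKM (SD, n = 2) in shA3B. The transcript was thus left at 6.38% of the control mean. The log2 fold change of FPKM + 1, the scale of all fold changes given here, was -3.47 (standard error 0.15, Benjamini-Hochberg adjusted p = 2.4e-06, limma). With 2 libraries against 2, the exact two-sided permutation test of this single value gave p = 0.33, the smallest p it can give.

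None of the other APOBEC3 genes tested was called. They lie beside APOBEC3B on chromosome 22 and are close in sequence, and the sources do not say how reads that match more than 1 of them were divided, which leaves each level uncertain. APOBEC3C, which like its relatives restricts retroelements, was at 19.98 and 19.9 FPKM in shCtrl and 22.4 and 19.8 FPKM in shA3B. Its groups overlapped, with a log2 fold change of 0.08 ± 0.14 (SE). APOBEC3D, an antiviral member, was low, at 1.596 and 0.888 FPKM in shCtrl and 1.36 and 1.36 FPKM in shA3B, again overlapping. APOBEC3F, a retrovirus restriction factor, was at 3.28 and 2.09 FPKM in shCtrl and 1.41 and 1.39 FPKM in shA3B. Both shA3B libraries lay below both shCtrl libraries for APOBEC3F, with a log2 fold change of -0.60 ± 0.21 (SE), and this difference did not pass adjustment (unadjusted p = 0.016, adjusted p = 0.9994, limma). APOBEC3A did not exceed 0.15 FPKM, APOBEC3G 0.0279 FPKM and APOBEC3H 0.144 FPKM in any library. The plot of APOBEC3 values by library shows the separation of APOBEC3B beside the small differences of its tested relatives.

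**Figure D1:**
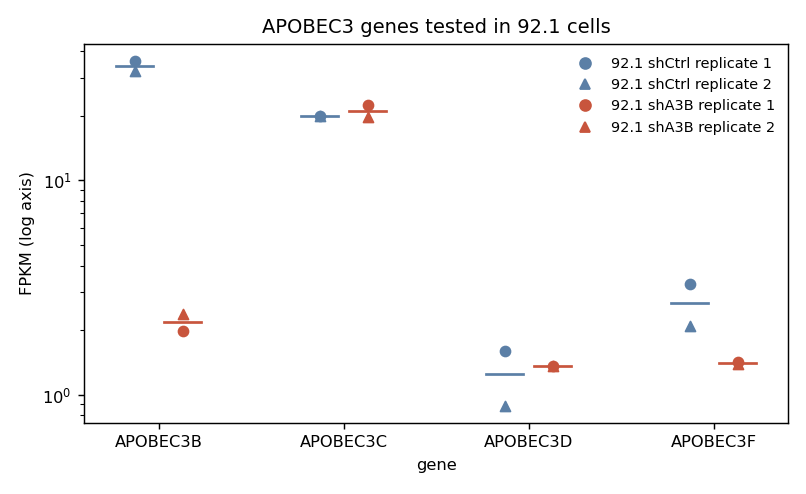
FPKM on a log axis of the 4 APOBEC3 genes tested, in the 2 shCtrl and 2 shA3B libraries of 92.1 cells. Points are libraries and bars are group means. APOBEC3B lies at 32.3 to 35.95 FPKM in shCtrl and at 1.98 to 2.37 FPKM in shA3B, while APOBEC3C lies near 20 FPKM in both groups.

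The genes around APOBEC3B served as a check of the region. Within 500 kb of the gene, 25 annotated genes had FPKM values, of which 20 others than APOBEC3B were tested. Of these, 9 were higher and 11 lower, with a median log2 fold change of -0.02, and APOBEC3F was the 1 gene with an unadjusted p under 0.05. The groups did not overlap for 5 of them, where 28.6% of all tested genes showed no overlap in either direction. SYNGR1, which codes for a synaptic vesicle protein, had the lowest fold change of these after APOBEC3F, at 97.49 and 95.3 FPKM in shCtrl and 88.7 and 67.7 FPKM in shA3B (log2 fold change -0.31, unadjusted p = 0.063, limma).

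APOBEC3B was the 1 gene called at an adjusted p under 0.05, or 0.00862% of the 11605 tested, and 0 genes (0.0%) were called higher (limma). At an unadjusted p under 0.05 there were 336 genes (2.9%), 196 higher (1.69%) and 140 lower (1.21%), while 580 would be reached if no gene differed. The count of 336 was not stable. It was 320 with upper quartile scaling and 561 with a replicate block (limma). With 1 library left out it lay above or below 580, depending on the library. Differences were small across the transcriptome. The median absolute log2 fold change was 0.10, the middle 95% of genes lay between -0.32 and 0.36, and the median standard error was 0.16, from 0.20 for genes with a mean of 1 to 4 FPKM to 0.14 for those above 64 FPKM. Log2 fold changes of 0.5 or more in either direction were seen in 152 genes (1.31%) and of 1 or more in 12 genes (0.103%). The plot of fold change against expression places APOBEC3B alone at the bottom of the cloud.

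**Figure D2:**
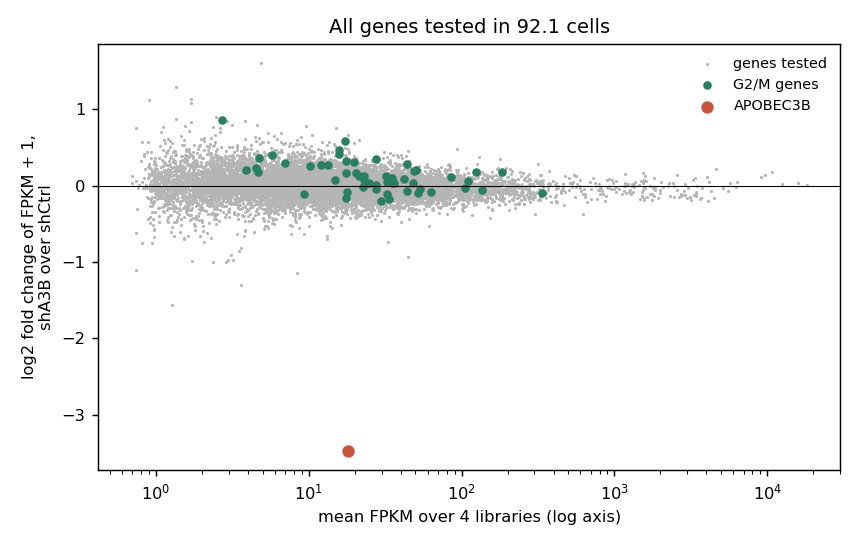
Log2 fold change of FPKM + 1, shA3B over shCtrl, against the mean FPKM over the 4 libraries of 92.1 (log axis). Points are the genes tested, with some genes that are not reported here left out. APOBEC3B stands at -3.47, the other genes lie within 1.60 of 0, and the G2/M genes lie between -0.20 and 0.86.

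After APOBEC3B the smallest adjusted p belonged to PCDHGC4, a gene of the gamma protocadherin cluster, which codes for adhesion molecules best known in neurons. Its level was 2.25 and 2.56 FPKM in shCtrl and 0.104 and 0.209 FPKM in shA3B. The groups did not overlap, with a log2 fold change of -1.56 ± 0.21 (SE) and an adjusted p of 0.070 (limma). Genes of this cluster share their last exons, which leaves the division of reads among them uncertain, and PCDHGC4 passed the filter only through the shCtrl libraries. It was named after its values were seen, as were NTNG2 and ROM1. NTNG2, a netrin-like guidance protein anchored in the membrane, was at 0.785 and 0.597 FPKM in shCtrl and 2.38 and 3.04 FPKM in shA3B (log2 fold change 1.13, adjusted p = 0.49, limma), and passed the filter only through the shA3B libraries. ROM1, a structural protein of photoreceptor discs, was at 4.76 and 2.34 FPKM in shCtrl and 0.836 and 1.604 FPKM in shA3B (log2 fold change -1.003, adjusted p = 0.9994, limma). An unadjusted p under 0.05 together with a log2 fold change of 1 or more in either direction was reached by 10 genes (0.0862%), 5 higher and 5 lower.

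Among genes averaging 4 FPKM or more, 237 had an unadjusted p under 0.05 and no overlap between the groups, 133 higher and 104 lower. Genes tested at these levels numbered 4352 at 4 to 16 FPKM, 3733 at 16 to 64 FPKM and 1314 at 64 FPKM or more. Of all genes tested, 2.9% had an unadjusted p under 0.05 (limma). The 12 with the highest and the 12 with the lowest fold change are described here as values, since none but APOBEC3B passed adjustment (adjusted p = 0.9994 for each, limma), and no overlap above or below was seen in 15.3% and 13.3% of all tested genes. SMARCA5, the ATPase of ISWI chromatin remodelling complexes, was at 14.5 and 13.1 FPKM in shCtrl and 22.1 and 22.7 FPKM in shA3B. It had the smallest standard error of the 24, with a log2 fold change of 0.66 ± 0.14 (SE, unadjusted p = 0.00066). ATG10, a conjugating enzyme of autophagy, was at 4.03 and 3.84 FPKM in shCtrl and 6.99 and 6.84 FPKM in shA3B (log2 fold change 0.68).

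The other higher genes follow. ETFDH, which passes electrons from fatty acid oxidation to ubiquinone, was at 4.17 and 4.61 FPKM in shCtrl and 7.93 and 7.03 FPKM in shA3B. PECR, a peroxisomal reductase of fatty acid elongation, was at 2.97 and 3.64 FPKM in shCtrl and 5.36 and 5.97 FPKM in shA3B. HIF1AN, the asparaginyl hydroxylase that restrains hypoxia-inducible factor, was at 6.32 and 7.18 FPKM in shCtrl and 11.7 and 10.6 FPKM in shA3B. In each of these 3 the gap between groups exceeded the spread within them. AGO4, an Argonaute protein that binds small RNAs, was at 4.07 and 3.05 FPKM in shCtrl and 5.67 and 6.27 FPKM in shA3B. CLU, the secreted chaperone clusterin, was at 6.07 and 10.1 FPKM in shCtrl and 13.3 and 12.7 FPKM in shA3B. The control libraries were further apart for CLU than for AGO4.

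For several of the higher genes a single library set the fold. MATR3, a nuclear matrix protein that binds RNA, was at 15.0 and 7.59 FPKM in shCtrl and 18.01 and 19.4 FPKM in shA3B. EFCAB2, a ciliary calcium-binding protein, was at 6.92 and 3.12 FPKM in shCtrl and 8.92 and 7.59 FPKM in shA3B. In both, shCtrl replicate 2 was the low library. POLR2J2, a copy of an RNA polymerase II subunit gene whose near-identical copies make its value uncertain, was at 4.18 and 10.2 FPKM in shCtrl and 10.8 and 13.4 FPKM in shA3B. HTN1, a salivary histatin gene, was at 2.75 and 2.99 FPKM in shCtrl and 3.40 and 9.13 FPKM in shA3B, so that shA3B replicate 2 carried the difference. AC005943.1, named only by its clone identifier, was at 4.89 and 0.253 FPKM in shCtrl and 6.85 and 7.63 FPKM in shA3B, a log2 fold change of 1.60 ± 0.51 (SE), which was 0.48 without shCtrl replicate 2 and 2.72 without shCtrl replicate 1.

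The genes with the lowest fold changes beside APOBEC3B come next. CRTC2, a coactivator of CREB, was at 11.7 and 22.0 FPKM in shCtrl and 9.30 and 9.74 FPKM in shA3B (log2 fold change -0.70 ± 0.23, SE). BCL6, a zinc finger repressor, was at 6.04 and 4.94 FPKM in shCtrl and 3.78 and 2.80 FPKM in shA3B (log2 fold change -0.60 ± 0.18, SE). MED26, a Mediator subunit, was at 7.74 and 10.96 FPKM in shCtrl and 6.52 and 5.68 FPKM in shA3B. The high value of shCtrl replicate 2 set much of the difference of CRTC2, and that of BCL6 was spread over both pairs. ZNF653, another zinc finger repressor, was at 5.74 and 6.78 FPKM in shCtrl and 3.53 and 4.56 FPKM in shA3B.

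PIEZO2, a mechanically gated ion channel, was at 6.47 and 6.11 FPKM in shCtrl and 4.71 and 3.26 FPKM in shA3B. GNAL, a stimulatory G protein alpha subunit, was at 12.01 and 8.97 FPKM in shCtrl and 6.95 and 6.61 FPKM in shA3B. CCN3, a secreted matricellular protein, was at 6.69 and 6.44 FPKM in shCtrl and 4.93 and 3.50 FPKM in shA3B. For PIEZO2 and CCN3 the shA3B libraries were further apart than the shCtrl libraries. STMN3, which destabilizes microtubules, was at 14.7 and 19.3 FPKM in shCtrl and 10.8 and 11.7 FPKM in shA3B. CDC42EP5, an effector of the GTPase CDC42, was at 10.5 and 13.8 FPKM in shCtrl and 8.34 and 7.72 FPKM in shA3B. PLA2G12A, a secreted phospholipase, was at 21.9 and 11.4 FPKM in shCtrl and 8.37 and 11.1 FPKM in shA3B, so that the groups only just failed to overlap. AL162231.1, a gene named only by its clone identifier, was at 8.94 and 9.64 FPKM in shCtrl and 8.37 and 3.70 FPKM in shA3B. The plot of the furthest genes shows which of these differences rest on a single library.

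**Figure D3:**
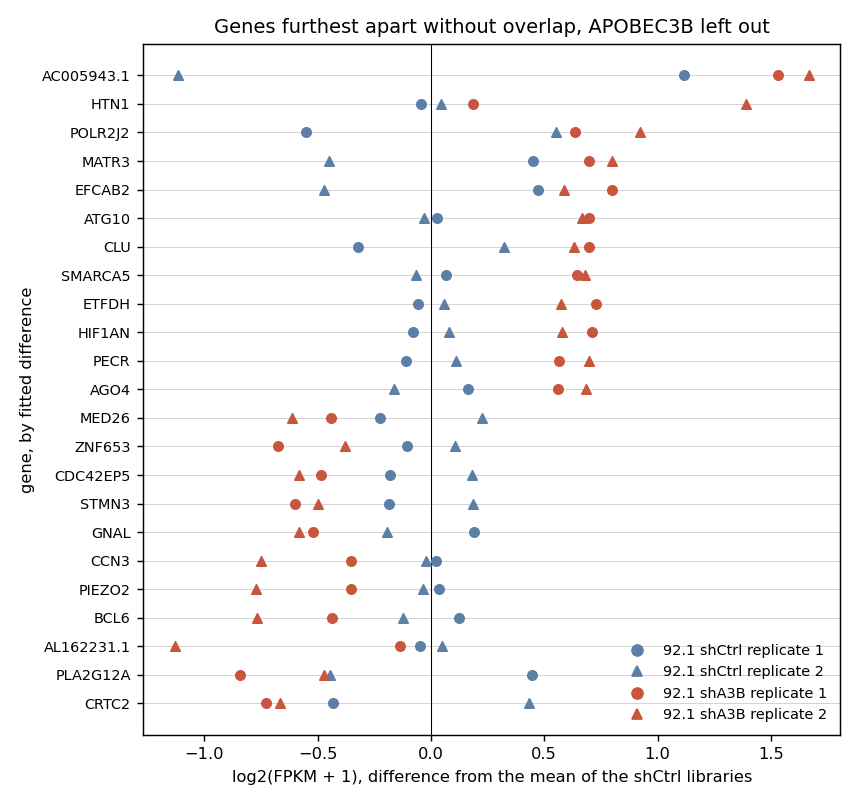
Difference of log2(FPKM + 1) from the mean of the shCtrl libraries for the 12 genes with the highest and the 11 with the lowest fold change beside APOBEC3B, among those averaging 4 FPKM or more with an unadjusted p under 0.05 and no overlap. Points are libraries, circles replicate 1 and triangles replicate 2. ATG10, SMARCA5 and ETFDH show close libraries in each group, while HTN1 and AL162231.1 rest on shA3B replicate 2.

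The study's question turned on replication stress, and its gene groups came next. Of 22 R-loop factors tested, 0 had an unadjusted p under 0.05, where 2.9% of all genes did. Of these factors 15 were higher and 7 lower, and the median log2 fold change was 0.06 against 0.00 for all genes tested. When each library was corrected for trends with GC content and length, the median was 0.01 and 12 were higher. RNASEH1, the nuclease that digests the RNA strand of R-loops, was at 21.7 and 20.9 FPKM in shCtrl and 20.1 and 21.9 FPKM in shA3B. The groups overlapped, and the log2 fold change of -0.02 ± 0.14 (SE) was smaller than its error. THOC1, of the THO complex that packages nascent RNA, was at 12.7 and 12.3 FPKM in shCtrl and 13.97 and 17.3 FPKM in shA3B (log2 fold change 0.29). TOP3B, a topoisomerase that acts on RNA and DNA, was the lowest member, at 19.8 and 19.9 FPKM in shCtrl and 18.2 and 18.1 FPKM in shA3B, with close libraries and a log2 fold change of -0.12.

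In the ATR-CHK1 checkpoint list of 19 genes, 0 had an unadjusted p under 0.05, where 2.9% of all genes did. Both shA3B libraries lay above both shCtrl libraries for 8 members (42.1%), beside 15.3% of all genes tested, and below for 0, beside 13.3%. The median log2 fold change of the list was 0.14. TIPIN, which with its partner TIMELESS holds the fork together, was the highest, at 6.21 and 7.11 FPKM in shCtrl and 9.48 and 7.93 FPKM in shA3B (log2 fold change 0.34, unadjusted p = 0.060). CLSPN, the adaptor claspin that brings CHK1 to ATR, was at 4.69 and 4.11 FPKM in shCtrl and 5.21 and 5.92 FPKM in shA3B. RPA1, the large subunit of RPA, was at 40.8 and 41.8 FPKM in shCtrl and 47.6 and 48.5 FPKM in shA3B (log2 fold change 0.21, unadjusted p = 0.13). The libraries of RPA1 were tight in both groups. RPA2, the subunit whose phosphorylation marks replication stress, was at 32.0 and 32.8 FPKM in shCtrl and 36.3 and 33.8 FPKM in shA3B. ATR itself was at 6.27 and 7.07 FPKM in shCtrl and 7.18 and 7.46 FPKM in shA3B, higher without overlap by 0.12 on the log2 scale. CHEK1, the gene of CHK1, did not share this pattern, at 19.7 and 13.6 FPKM in shCtrl and 13.9 and 15.3 FPKM in shA3B, and the phosphatase gene CDC25A was the lowest member at -0.23. The median of the list was 0.10 when each library was corrected for trends with GC content and length and 0.08 without shCtrl replicate 2.

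Genes of origin licensing and the replisome were spread about 0. Of 42 tested, 26 were higher and 16 lower, with a median of 0.04, and 2 had an unadjusted p under 0.05, or 4.76% against 2.9% of all genes. ORC4, of the origin recognition complex, was at 7.45 and 7.03 FPKM in shCtrl and 10.2 and 11.97 FPKM in shA3B (log2 fold change 0.55, unadjusted p = 0.0047). RFC1, the large subunit of the clamp loader, was at 17.5 and 14.3 FPKM in shCtrl and 19.6 and 21.2 FPKM in shA3B (log2 fold change 0.34, unadjusted p = 0.044). CDC45, part of the replicative helicase, went the other way without overlap, at 34.7 and 37.3 FPKM in shCtrl and 33.98 and 32.2 FPKM in shA3B (log2 fold change -0.12). POLA2, of the primase complex, was the lowest member, at 21.3 and 20.2 FPKM in shCtrl and 19.7 and 15.8 FPKM in shA3B. The 11 genes of deoxynucleotide supply had a median of 0.02, and none separated the groups, where 28.6% of all tested genes did in either direction.

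For repair of the uracil that A3B makes, only the transcript levels of 20 genes of base excision repair were available. Their median was 0.00, 10 were higher and 10 lower, and 0 had an unadjusted p under 0.05, where 2.9% of all genes did. UNG, the main uracil glycosylase, was at 33.7 and 31.9 FPKM in shCtrl and 33.7 and 32.3 FPKM in shA3B, a log2 fold change of 0.01 ± 0.13 (SE). SMUG1, a second uracil glycosylase, was at 31.2 and 28.0 FPKM in shCtrl and 24.1 and 27.8 FPKM in shA3B (log2 fold change -0.18). MBD4, a thymine and uracil glycosylase, was at 10.1 and 10.0 FPKM in shCtrl and 10.1 FPKM in shA3B replicate 1, and only shA3B replicate 2 was higher (log2 fold change 0.22 ± 0.17, SE). Of 26 genes of homologous recombination and the Fanconi anemia pathway, 18 were higher, with a median of 0.07. After the GC and length correction 14 were higher, with a median of 0.02. An unadjusted p under 0.05 was reached by 1 member (3.85%, against 2.9% of all genes, limma). It was RAD50, of the complex that senses double-strand breaks, at 2.11 and 1.40 FPKM in shCtrl and 2.23 and 3.71 FPKM in shA3B (log2 fold change 0.51, unadjusted p = 0.047). The 13 genes of translesion synthesis and fork bypass had a median of 0.14, which was 0.06 without shA3B replicate 1, with 3 members above and 2 below without overlap, where 15.3% and 13.3% of all genes were. In this list REV3L, the catalytic subunit of polymerase zeta, was at 10.4 and 7.63 FPKM in shCtrl and 9.43 and 13.5 FPKM in shA3B, and the fork-remodelling enzyme ZRANB3 was lowest at -0.32.

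The G2/M list holds genes that act in chromosome condensation, spindle assembly and division. Of 53 tested, 22 (41.5%) had both shA3B libraries above both shCtrl libraries, beside 15.3% of all genes, and 4 (7.55%) had them below, beside 13.3%. An unadjusted p under 0.05 was reached by 6 members (11.3%, against 2.9% of all genes), each of them higher, and by adjusted p 0 were called. The list's median log2 fold change was 0.11, with library medians, relative to the shCtrl mean, of 0.05 and -0.05 in shCtrl and 0.10 and 0.12 in shA3B. In a culture, more cells in a phase and more RNA per cell in that phase cannot be told apart.

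The 6 members with an unadjusted p under 0.05 serve the mitotic spindle and cytokinesis. NUF2, a kinetochore subunit that binds microtubules, was at 13.3 and 12.7 FPKM in shCtrl and 17.8 and 19.0 FPKM in shA3B, with tight libraries and a log2 fold change of 0.47 ± 0.14 (SE, unadjusted p = 0.0064). HMMR, a spindle assembly factor, was at 4.89 and 4.75 FPKM in shCtrl and 7.07 and 6.35 FPKM in shA3B (log2 fold change 0.40, unadjusted p = 0.027). CKAP5, a microtubule polymerase, was at 24.9 and 23.5 FPKM in shCtrl and 32.2 and 30.2 FPKM in shA3B (log2 fold change 0.35, unadjusted p = 0.024). In these 3 the gap between groups exceeded the spread within them. ECT2, the exchange factor that starts the contractile ring, was at 15.4 and 11.7 FPKM in shCtrl and 17.3 and 19.0 FPKM in shA3B (log2 fold change 0.41). CENPF, a kinetochore protein of late G2, was at 16.2 and 11.1 FPKM in shCtrl and 17.9 and 23.9 FPKM in shA3B (log2 fold change 0.59). KIF20B, a kinesin of cytokinesis, was at 2.002 and 1.20 FPKM in shCtrl and 2.54 and 5.17 FPKM in shA3B (log2 fold change 0.86), and shA3B replicate 2 carried much of it. The lowest members were PIMREG, a mitotic regulator, at -0.20, and CENPA, the centromeric histone H3 variant, at 36.0 and 35.2 FPKM in shCtrl and 32.6 and 30.1 FPKM in shA3B (log2 fold change -0.18). The median of the G2/M list was 0.06 after the GC and length correction and 0.06 without shCtrl replicate 2. The count of members without overlap after the correction is left out, since the share of all genes under it is not given.

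Many G2/M promoters carry a cell cycle genes homology region, bound by the MuvB complexes that drive late cell cycle genes. The sequence TTTGAA, searched on both strands from 250 bases before to 50 after the start in the RefSeq promoter table (GRCh38.p14), was found in 31 of 44 G2/M promoters with a sequence (70.5%) and in 890 of 9435 promoters of tested genes (9.43%). The 33 S phase promoters held it in 3.03%. With TTTAAA, which reads the same on both strands, counted as well, the shares were 79.5% and 15.1%. Among the G2/M genes whose shA3B libraries lay above, 14 of 19 promoters (73.7%) held TTTGAA, and among the other members 17 of 25 (68.0%) did. A match is a description and not a bound site. For each of the 6 members with an unadjusted p under 0.05, 1 match to TTTGAA is shown on the strand of the gene in capitals. The CKAP5 match shown is read on the opposite strand, as TTCAAA. CKAP5 and ECT2 each hold another, separate match and CENPF holds a TTTAAA, which are not shown. Those of HMMR and KIF20B are followed directly by a second copy in lower case.
NUF2 (chr1:163321958-163321987, plus strand): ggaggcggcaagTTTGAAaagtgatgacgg
HMMR (chr5:163460592-163460621, plus strand): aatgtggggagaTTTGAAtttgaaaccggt
CKAP5 (chr11:46846336-46846365, minus strand): gcccacaggcctTTCAAAtggaccaataaa
ECT2 (chr3:172750599-172750628, plus strand): tcgttgggcttaTTTGAAacacacgcacaa
CENPF (chr1:214603215-214603244, plus strand): ccggtggcggctgcgggcagTTTGAAttag
KIF20B (chr10:89701602-89701631, plus strand): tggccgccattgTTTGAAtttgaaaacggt

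Of 43 S phase genes, 37 were higher and 6 lower after A3B depletion, where 5804 of all 11605 tested genes were higher. Both shA3B libraries lay above both shCtrl libraries for 15 members (34.9%, beside 15.3% of all genes) and below for 2 (4.65%, beside 13.3%). The median was 0.09, and 0.05 after the GC and length correction. An unadjusted p under 0.05 was reached by 1 member (2.33%), a share under the 2.9% of all genes (limma). It was HELLS, a chromatin remodeller needed for DNA methylation, at 18.6 and 11.6 FPKM in shCtrl and 23.4 and 18.8 FPKM in shA3B (log2 fold change 0.48, unadjusted p = 0.039). The lower shA3B value of HELLS was close to the higher shCtrl value. E2F8, a repressor of the E2F family, was the lowest member, at 2.43 and 2.77 FPKM in shCtrl and 2.28 and 2.33 FPKM in shA3B. CLSPN and TIPIN belong to this list as well as to the checkpoint list.

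Upstream of S phase, the 25 tested genes of G1 cyclins, CDK inhibitors, RB and E2F factors had a median of -0.05, with 2 above and 6 below without overlap, where 15.3% and 13.3% of all genes were. CDKN1C, an inhibitor of G1 kinases, was at 22.2 and 25.6 FPKM in shCtrl and 20.8 and 15.5 FPKM in shA3B (log2 fold change -0.39, unadjusted p = 0.038). E2F5, a repressive E2F factor, was at 25.6 and 24.0 FPKM in shCtrl and 19.1 and 19.6 FPKM in shA3B, with close libraries in each group (log2 fold change -0.34, unadjusted p = 0.029). RB1, the retinoblastoma protein, was at 8.59 and 7.36 FPKM in shCtrl and 9.73 and 9.73 FPKM in shA3B. CDKN1A, the CDK inhibitor p21, was at 24.3 and 16.6 FPKM in shCtrl and 32.4 and 20.8 FPKM in shA3B. Its libraries followed the replicate number more than the group, and the groups overlapped. The 15 tested members of the BCL2 family, which govern apoptosis, had a median of -0.07 with 11 lower, led by HRK at -0.34 and BID at -0.28.

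The regulators known to drive APOBEC3B transcription were also spread about 0. Of 16, 0 had an unadjusted p under 0.05, where 2.9% of all genes did. Without overlap 2 were above and 0 below (15.3% and 13.3% of all genes), and the median was -0.05. LIN9, a MuvB subunit, was highest at 0.25, and RELB, of noncanonical NF-kB, lowest at -0.26.

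ERK is the kinase that activated GNAQ and GNA11 drive in uveal melanoma. Of 19 genes of ERK pathway output, 14 were lower, and 7 (36.8%) had both shA3B libraries below both shCtrl libraries, beside 13.3% of all genes. None had an unadjusted p under 0.05, where 2.9% of all genes did, and the median was -0.11. SPRED2, a feedback inhibitor of RAS signalling, was at 22.0 and 21.9 FPKM in shCtrl and 18.5 and 17.9 FPKM in shA3B, with tight libraries (log2 fold change -0.26, unadjusted p = 0.085). IER3, an early response gene, was at 4.91 and 6.67 FPKM in shCtrl and 4.68 and 4.68 FPKM in shA3B. EPHA4, a receptor tyrosine kinase, was at 0.625 and 0.526 FPKM in shCtrl and 1.07 and 1.12 FPKM in shA3B, and passed the filter only through the shA3B libraries. It was the 1 member above without overlap. The median of this list was -0.02 without shCtrl replicate 2, -0.04 without shA3B replicate 1 and -0.03 after the GC and length correction. The 8 tested immediate early genes, some of them shared with the ERK list, had a median of -0.23, and 7 were lower. JUNB, an AP-1 subunit, was at 17.1 and 20.2 FPKM in shCtrl and 15.1 and 13.7 FPKM in shA3B (log2 fold change -0.35, unadjusted p = 0.041). Without shCtrl replicate 2 the median of the immediate early genes was -0.05.

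Lineage and tumour genes were spread about 0. Of 19 melanocyte lineage genes tested, 7 were higher and 12 lower, with a median of -0.03. MITF, the master regulator of the lineage, was at 75.4 and 67.0 FPKM in shCtrl and 81.4 and 68.7 FPKM in shA3B. SOX10, a neural crest factor, was at 247 and 328 FPKM in shCtrl and 256 and 256 FPKM in shA3B. Both overlapped. EDNRB, the endothelin receptor of melanocytes, was lowest, at 44.5 and 43.3 FPKM in shCtrl and 38.3 and 37.0 FPKM in shA3B. RAB27A, which moves melanosomes, was highest at 0.33. Of 17 uveal melanoma drivers and Gq signalling genes, 0 were above and 3 below without overlap (15.3% and 13.3% of all genes), with SRSF2, a splicing factor, lowest at -0.19.

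Matrix and adhesion genes had a negative median that depended on single libraries. Of 25 tested, 19 were lower, 0 were above and 3 below without overlap, a share under the 13.3% of all genes that lay below, and the median was -0.11. SPARC, a collagen-binding glycoprotein, was at 221 and 230 FPKM in shCtrl and 201 and 162 FPKM in shA3B (log2 fold change -0.32, unadjusted p = 0.044). FN1, fibronectin, was at 8.74 and 5.48 FPKM in shCtrl and 6.76 and 3.93 FPKM in shA3B, with overlap. The median of the list was 0.00 without shA3B replicate 2 and -0.02 without shCtrl replicate 1.

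Interferon-stimulated genes respond to nucleic acid that reaches the sensors of the cytosol. Only 16 of 30 listed genes passed the filter, of which 6 were higher and 10 lower with a median of -0.02. IRF9, of the interferon response complex, was at 4.68 and 4.22 FPKM in shCtrl and 2.92 and 3.35 FPKM in shA3B (log2 fold change -0.40, unadjusted p = 0.040). BST2, an antiviral membrane protein, was at 0.532 and 0.656 FPKM in shCtrl and 1.13 and 1.03 FPKM in shA3B, and passed the filter only through the shA3B libraries. ISG15, a ubiquitin-like interferon product, was at 5.26 and 7.88 FPKM in shCtrl and 3.60 and 6.67 FPKM in shA3B. Without shA3B replicate 2 the median of the interferon list was 0.14, and without shA3B replicate 1 it was -0.13. Of 17 genes of HLA class I presentation, ERAP1, which trims peptides, had an unadjusted p of 0.017, at 2.91 and 2.24 FPKM in shCtrl and 4.73 and 3.65 FPKM in shA3B (log2 fold change 0.54). HLA-B followed the replicate number, at 160 and 61.8 FPKM in shCtrl and 223 and 74.7 FPKM in shA3B.

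The large housekeeping groups had medians within a few hundredths of 0 on the log2 scale. Of 79 nuclear genes of oxidative phosphorylation, 58 were higher (73.4%), 14 (17.7%, near the 15.3% of all genes) were above without overlap, and the median was 0.03. Of 77 cytosolic ribosomal proteins, 50 were lower, 13 (16.9%, near the 13.3% of all genes) were below without overlap, and the median was -0.02, which was 0.00 after quantile normalization. With 1 library left out, the median ran from 0.02 to 0.11 for oxidative phosphorylation, the highest without shA3B replicate 2, and from -0.08 to -0.01 for ribosomal proteins, the lowest without shA3B replicate 1. RPS19, of the small subunit, was lowest, at 4396 and 4421 FPKM in shCtrl and 4041 and 3653 FPKM in shA3B. Of 13 genes of the mitochondrial genome, 12 were higher, with a median of 0.05 that was 0.00 after quantile normalization and -0.02 after the GC and length correction. Within this group MT-CO1, a cytochrome oxidase subunit, was at 9992 and 10200 FPKM in shCtrl and 11970 and 10890 FPKM in shA3B. Of 70 clustered histone genes, whose transcripts mostly lack a poly(A) tail, only 10 passed the filter. Of these H4C11, a histone H4 gene, was lowest, at 2.84 and 2.33 FPKM in shCtrl and 1.93 and 0.740 FPKM in shA3B (log2 fold change -0.66, unadjusted p = 0.023).

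Among stress groups, 19 genes of the integrated stress and unfolded protein response had a median of 0.00, which was -0.12 without shCtrl replicate 1 and 0.12 without shCtrl replicate 2. Members ran from CHAC1, a glutathione-degrading enzyme, at -0.30 to DNAJB9, a chaperone of the endoplasmic reticulum, at 0.35. The 11 heat shock genes had a median of 0.05, with HSP90AA1, the inducible HSP90, at 297 and 274 FPKM in shCtrl and 315 and 385 FPKM in shA3B. Of 17 genes of hypoxia and glycolysis, 14 were lower with a median of -0.05. The 22 genes of cholesterol and fatty acid synthesis had a median of -0.02 with INSIG1, a brake on sterol synthesis, lowest at -0.24. The 10 targets of YAP and TAZ had a median of -0.05, and the 6 NF-kB targets and cytokines also of -0.05. With 1 library left out, the medians of the lists of base excision repair, deoxynucleotide supply, G1 factors, APOBEC3B regulators, the melanocyte lineage, Gq signalling, HLA class I, cholesterol synthesis, and YAP and TAZ targets changed sign. The plot of gene lists places all of these beside each other.

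The response of 92.1 was last set against that of MEL290, in which APOBEC3B was at 2.67 and 2.19 FPKM in NC and 28.4 and 27.5 FPKM in A3B OE. Both effects were taken from the higher to the lower A3B level, and their difference was tested in a fit over all 8 libraries. Depletion was done only in 92.1 and overexpression only in MEL290, so a difference between lines and one between manipulations cannot be told apart. For APOBEC3B the difference was -0.39 ± 0.19 (SE, adjusted p = 0.28, limma), so the size of the A3B change did not differ detectably between the lines. Over the 10543 genes tested in both lines, 534 (5.06%) differed at an adjusted p under 0.05, and among the 153 named genes tested in both 20 (13.1%) did. Those 20 were named mostly for the size of their 92.1 value, so their share is not independent of that choice.

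With both effects taken from higher to lower A3B, the difference adds the change after depletion in 92.1 to the change after overexpression in MEL290, so the selection of the 20 favours transcripts on the same side of their controls in both. This held for 16 of the 20 and is given as a description. NUF2 was at 6.49 and 6.35 FPKM in NC and 17.0 and 21.7 FPKM in A3B OE, so that it was higher with more A3B in MEL290 and higher with less A3B in 92.1 (difference 1.92 ± 0.19, SE, adjusted p = 0.0028, limma). CENPF was at 20.8 and 17.9 FPKM in NC and 37.1 and 50.8 FPKM in A3B OE (difference 1.72, adjusted p = 0.015, limma). HMMR was at 8.23 and 7.69 FPKM in NC and 17.7 and 20.2 FPKM in A3B OE (difference 1.56, adjusted p = 0.0058, limma). The other G2/M genes among the 20 were ECT2, KIF20B and PIMREG. Of these PIMREG was not among the 16, with a log2 fold change of -0.20 in 92.1 and 1.53 in MEL290 (A3B OE over NC). SMARCA5 was at 13.7 and 14.03 FPKM in NC and 15.2 and 18.5 FPKM in A3B OE, less apart than in 92.1 (difference 0.92, adjusted p = 0.020, limma). CCL2, a chemokine, differed in the other sense, at 5.41 and 4.88 FPKM in NC and 0.326 and 0.099 FPKM in A3B OE, against 1.99 and 0.839 FPKM in shCtrl and 2.25 and 1.90 FPKM in shA3B. The plot of both lines shows that the MEL290 effect was the larger in size for all of the 20 genes but KIF20B, PECR and SMARCA5.

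**Figure D4:**
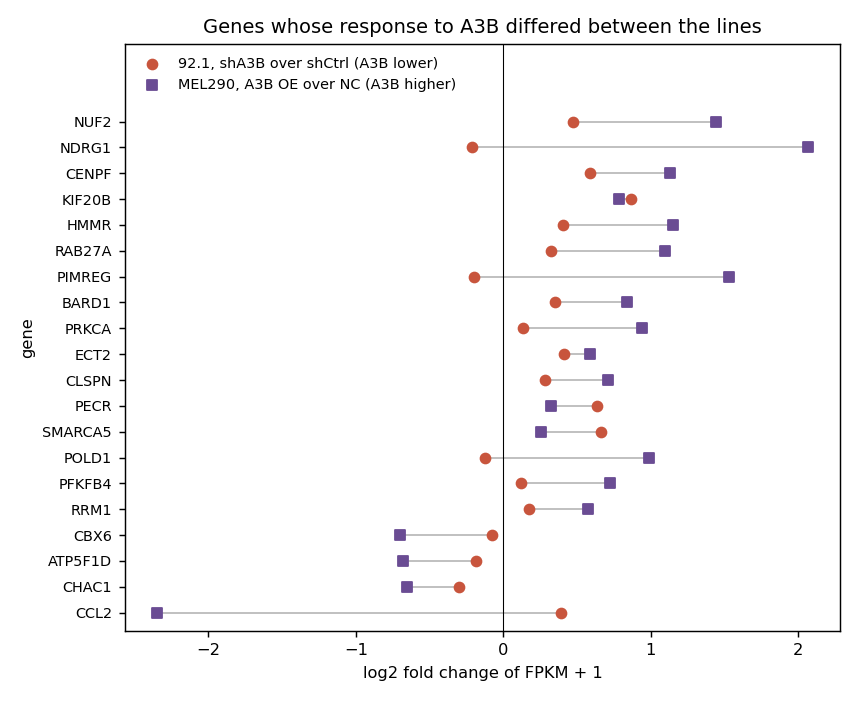
Log2 fold change of FPKM + 1 in 92.1 (shA3B over shCtrl, circles) and in MEL290 (A3B OE over NC, squares). Shown are the 20 named genes whose change from higher to lower A3B differed at an adjusted p under 0.05 (limma). Cell line and manipulation cannot be told apart. Grey lines join the values of a gene. NUF2 stands at 0.47 and 1.45, and CCL2 at 0.39 and -2.35.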

How the data were processed

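RNA of 92.1 cells (2 shCtrl and 2 shA3B libraries) and MEL290 cells (2 NC and 2 A3B OE) had been sequenced as paired ends. Per the study's methods and the submitters' processing notes, reads were aligned to GRCh38 with STAR, and FPKM values per gene symbol were calculated with Cufflinks over Ensembl genes. The authors deposited these FPKM values, already divided by transcript length and mapped fragments, as 1 file per library. Their differential test, Cuffdiff, starts from reads and was not run. FPKM values are not counts, so no count test and no counting error is given.

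Values were transformed as log2(FPKM + 1), which understates changes of low genes. Genes with at least 1 FPKM in at least 2 of the 4 libraries were fitted with limma 3.58.1 (trend) in R 4.3.3, adjusted by Benjamini-Hochberg over all genes tested, at a threshold of 0.05. The script was tested on simulated data. The MEL290 comparison was a contrast over 8 libraries. GENCODE release 44 matched 19033 of 19952 symbols by name and 257 by an older symbol, and gave coordinates. Promoters came from RefSeq. Depth was estimated from the smallest FPKM steps, with 27.0% to 30.5% of genes within 5% of the peak.

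Gene lists and tests were chosen with earlier results of these data known. Named genes were the APOBEC list, called genes, the 12 highest and 12 lowest fold changes among genes with an unadjusted p under 0.05, no overlap and an average of 4 FPKM or more, the extremes of each list and members with an unadjusted p under 0.05, fixed genes of the study's pathways, and genes within 500 kb of APOBEC3B. S and G2/M lists came from Seurat 5.3.0. Lists were described by counts and medians, with no set test. Results for some genes are not reported here. Alternatives were other pseudocounts, filters, scalings, a GC and length correction, no trend, all 8 libraries, a replicate block and each library left out.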

Additional observations from a re-analysis of the deposited data

Results flagged for a closer look

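The change from higher to lower A3B differed between depletion in 92.1 and overexpression in MEL290 for 20 named genes (adjusted p under 0.05, limma over 8 libraries). Of the genes tested in both lines, 5.06% differed by this test of the difference itself. Cell line and manipulation cannot be told apart in it. Values below are the 92.1 effect less the MEL290 effect on the log2(FPKM + 1) scale. Because these genes were named partly for the size of their 92.1 effect, the tests are not independent of that choice.

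Among genes of mitosis the difference was 1.92 for NUF2, 1.72 for CENPF, 1.65 for KIF20B and 1.56 for HMMR. It was 1.00 for ECT2 and 1.34 for PIMREG, which unlike these was lower after depletion in 92.1. Among genes of replication and repair it was 1.19 for BARD1, a partner of BRCA1, 0.99 for CLSPN, 0.86 for POLD1, a replicative polymerase subunit, and 0.75 for RRM1, a subunit of ribonucleotide reductase. In metabolism and hypoxia it was 1.86 for NDRG1, a hypoxia-inducible gene, 0.96 for PECR, 0.84 for PFKFB4, a regulator of glycolysis, and -0.86 for ATP5F1D, an ATP synthase subunit. For genes of signalling and chromatin it was 1.07 for PRKCA, a protein kinase C, 0.92 for SMARCA5 and -0.78 for CBX6, a Polycomb subunit near APOBEC3B. It was 1.42 for RAB27A, -0.95 for CHAC1 and -1.96 for CCL2. In the fit of 92.1 alone without a replicate block none of the 20 was called, while with the block KIF20B and SMARCA5 were. The blocked fit leaves little from which to estimate the spread of a gene. The number of differing named genes was 6 without shA3B replicate 2 or A3B OE replicate 2, 8 without either NC library, 9 without shCtrl replicate 2 or A3B OE replicate 1, 15 without shA3B replicate 1 and 21 without shCtrl replicate 1.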

How the results depend on the processing

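Of the alternatives run, the call of APOBEC3B was lost under 1 setting, the fit with no filter on low FPKM, in which the log2 fold change was -3.47 with an adjusted p of 0.34 and 0 genes were called. Its log2 fold change was -3.91 with a pseudocount of 0.1 and between -3.56 and -3.38 with 1 library left out, and the adjusted p stayed under the threshold in these fits. The number of genes called was 2 without the limma trend and between 2 and 7 with 1 library left out, where the lone library was assumed to vary like the other group. At an unadjusted p under 0.05 it was 336, and 10 where the log2 fold change also reached 1 in either direction. The count of 336 became 320 with upper quartile scaling, 493 with all 8 libraries in 1 fit and 561 with a replicate block (limma). It also depended on which library was left out. A replicate block called 37 genes, 20 higher and 17 lower, with KIF20B, SMARCA5 and MATR3 among them. With the block, 4 libraries leave little from which to estimate the spread of a gene. The adjusted p of APOBEC3B was 3.5e-86 in that fit (limma), so its p-values are not taken at face value. Same-numbered libraries deviated together with a correlation of 0.19 over 11605 genes, and with 2 pairs the numbers are not shown to pair the libraries. The block left 24 named genes differing between the lines, against 20. Leaving out 1 library gave between 6 and 21. Genes near 0 changed sign. MITF was at -0.0037 after the GC and length correction and RNASEH1 at 0.00040 with upper quartile scaling. With 1 library left out the log2 fold change lay between -0.0068 and 0.16 for APOBEC3C, between -0.14 and 0.32 for APOBEC3D, between -0.26 and 0.12 for CBX6, between -0.048 and 0.19 for MITF, between -0.35 and 0.049 for SOX10, between -0.078 and 0.043 for RNASEH1 and between -0.031 and 0.048 for UNG. It lay between -0.41 and 0.095 for CHEK1, between -0.28 and 0.029 for POLD1, between -0.00042 and 0.35 for RRM1, between -0.042 and 0.30 for PRKCA, between -0.38 and 0.017 for ATP5F1D, between -0.70 and 0.041 for ISG15 and between -0.41 and 1.15 for HLA-B. The cause was not tested. Of 248 list medians under an alternative, 197 differed from the reported one by less than the spread between libraries. The median standard error of 0.20 at a mean of 1 to 4 FPKM limits what low genes show.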
